A study of Homo sapiens with 60 samples.

Results

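The 35 genes described here encode aminoacyl-tRNA synthetases, the enzymes that join each amino acid to its transfer RNA. They were taken by name from the 60675 genes of the table, and the list was proposed with earlier results of these data known. Of them, 19 encode cytosolic enzymes (names ending in 1, with FARSA and FARSB) and 16 encode mitochondrial enzymes (names ending in 2). All 35 were found under a single identifier and all passed the filter on low counts, which left 17368 genes to test. RNA was sequenced from A549, a human lung adenocarcinoma cell line, after 24 h of treatment. The control group, Vehicle, received dimethyl sulfoxide. Its label states 0.1%, whereas the series description states 2%. The labels of the other groups name no dimethyl sulfoxide. Wortmannin, a fungal inhibitor of phosphoinositide 3-kinases that served as the positive control, was given at 10 µM. The other 18 groups received water extracts of 6 herbal drugs, each at 500, 100 and 20 µg/mL: Polygalae Radix, Aucklandiae Radix, Zizyphi Semen, Schisandrae Fructus, Longan Arillus and Liriopis seu Ophiopogonis Tuber. The series description states that an extract toxic at the top dose was given at a lower top dose and its 5-fold dilutions, whereas the labels give the same 3 doses for all 6, and the doses here are those of the labels. The groups are written as the first word of the drug and the dose (Polygalae 500). Each of the 20 groups had 3 libraries, and whether these were separate cultures is not stated. The p-values then describe the spread among libraries, which may be technical.

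Cytosolic protein synthesis and the small translation system inside mitochondria use separate transfer RNAs, and most amino acids therefore have a pair of synthetase genes, both in the nucleus. KARS1 and GARS1 serve both compartments, proline in the cytosol is charged by the bifunctional enzyme EPRS1, FARSA and FARSB are the subunits of a single enzyme, and mitochondrial glutaminyl-tRNA is made through EARS2 and an amidotransferase. Several cytosolic synthetases sit in a multi-enzyme complex held together by the scaffold proteins AIMP1, AIMP2 and EEF1E1. When amino acids run short, the kinase GCN2 (EIF2AK4) senses uncharged transfer RNA and raises translation of the transcription factor ATF4, whose known targets include asparagine synthetase (ASNS) and many cytosolic synthetase genes. mTORC1, a kinase downstream of phosphoinositide 3-kinase, is a further known activator of ATF4.

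Library totals ran from 17.7 M to 30.6 M counts (M for mega), with a median of 24.6 M. Levels are given as CPM, the counts per M counts of a library. The epithelial keratins KRT8 (2866 to 4163 CPM) and KRT18 (2182 to 3209 CPM) were high in every library. The other epithelial markers were lower: KRT19 (22.9 to 44.4 CPM), CDH1 (26.4 to 35.9 CPM) and EPCAM (3.65 to 6.37 CPM). Of 8 markers of fibroblasts, endothelium and blood, 6 stayed under 0.5 CPM in every library. The exceptions were COL1A1 (18.4 to 34.5 CPM) and CD68 (6.89 to 23.9 CPM). The summed level of the 8 markers was 39.2 to 41.7 CPM in Vehicle, 42.7 to 46.7 CPM with wortmannin and 42.7 to 46.8 CPM with Polygalae 500, and its part in the results below was not tested. CD68 rose with wortmannin (log2 fold change 0.53 ± 0.13, SE) and Polygalae 500 (0.96 ± 0.13), and COL1A1 fell with Polygalae 500 (−0.35 ± 0.065). Of 5 epithelial markers, 2 rose with wortmannin, and 1 rose and 3 fell with Polygalae 500. Of all tested genes, 18% rose and 19.4% fell with wortmannin, and 10.4% rose and 9.48% fell with Polygalae 500. The library names place Vehicle, wortmannin and pairs of extracts in different sets. For wortmannin, alone in its set, set and treatment cannot be told apart in a comparison with Vehicle. Vehicle is alone in its set too, so that a comparison of an extract with Vehicle cannot tell set and treatment apart either. Polygalae and Aucklandiae share a set, as do Zizyphi and Longan, and Schisandrae and Liriopis. The 3 libraries of Polygalae 20 and replicate 3 of Liriopis 500 differed from their group mates more than the others did.

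In Vehicle libraries the cytosolic genes were more abundant than the mitochondrial ones. Per kilobase of the principal transcript, the cytosolic genes ranged from 25.4 CPM per kb (CARS1) to 112 CPM per kb (KARS1), with a median of 48.7, and the mitochondrial genes from 2.95 (PARS2) to 59.9 (IARS2), with a median of 9.51. KARS1, the lysyl enzyme of both compartments, stood at 111.5 ± 2.0 CPM per kb (SD, n = 3), above MARS1 at 89.8 ± 1.1. MARS1, IARS1 (88.0 ± 1.7) and GARS1 (84.7 ± 3.5) overlapped with the next gene in the order over their 3 libraries. IARS2, the mitochondrial isoleucyl enzyme, was the exception among mitochondrial genes: it ranked 8 of 35, between RARS1 (64.6 ± 1.3) and NARS1 (58.5 ± 0.5), and the next mitochondrial gene was SARS2 at 25.0 ± 0.6, whose libraries overlapped with those of CARS1. In the 13 pairs with a cytosolic and a mitochondrial gene for the same amino acid, the cytosolic gene was 1.47 times (isoleucine) to 25.7 times (alanine) as abundant.

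**Figure D1:**
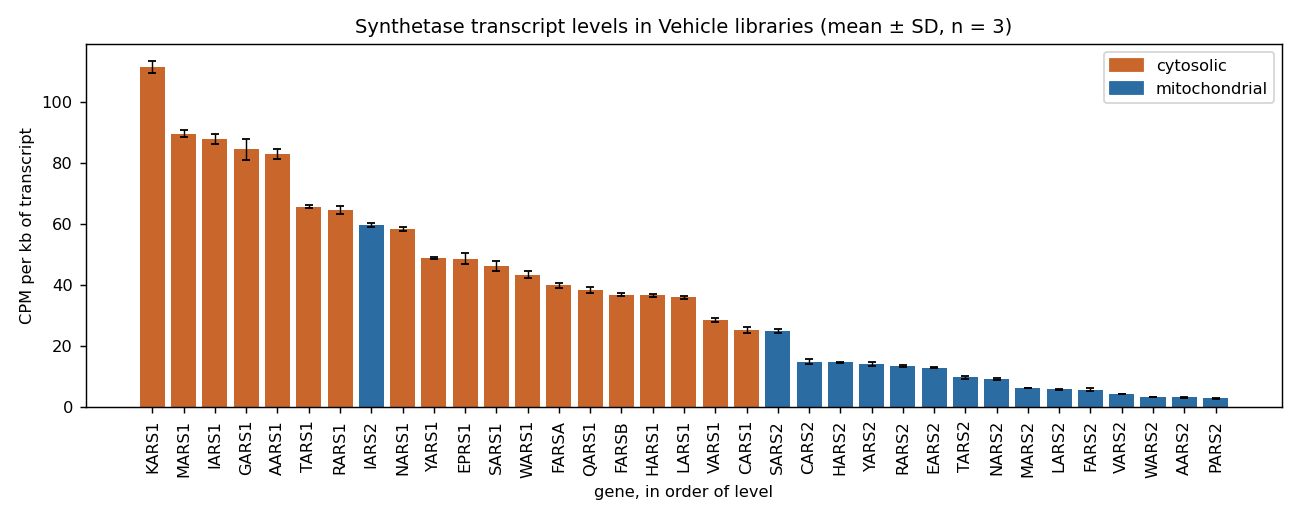
Level of each of the 35 synthetase genes in the 3 Vehicle libraries, in CPM per kilobase of transcript (bars: mean, error bars: SD, n = 3), ordered from KARS1 (111.5) to PARS2 (2.95). Cytosolic genes (orange) fill the upper ranks, and IARS2 (59.9) is the mitochondrial gene (blue) among them.

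The promoters of some of these genes share a short sequence, and they are shown here because it was more frequent in the cytosolic than in the mitochondrial genes. Of the cytosolic genes with a promoter window, 7 of 7 with it and 8 of 9 without it fell with wortmannin. Their median log2 fold changes were −0.62 and −0.31, and 19.4% of all tested genes fell. RefSeq promoter windows (GRCh38.p14, 250 bases before a transcript start and 50 bases from it on) were matched for 30 of the 35 members. They were not matched for AARS2, LARS1, VARS1, VARS2 and YARS1. The windows were searched on both strands for TGATGNAA, the core of the element that ATF4 shares with CCAAT/enhancer-binding proteins, and for CACGTG, the E-box. TGATGNAA was present in 7 of 16 cytosolic genes (43.8%) and 1 of 14 mitochondrial genes (7.14%), beside 4.46% of all 27305 genes with a window. In 6 of the 7 cytosolic genes it lay close to the start, and 120 bases of each (90 before the start and 30 from it on, on the gene's strand, with the match in capitals) read as follows.
CARS1, chr11:3057394-3057513, minus strand: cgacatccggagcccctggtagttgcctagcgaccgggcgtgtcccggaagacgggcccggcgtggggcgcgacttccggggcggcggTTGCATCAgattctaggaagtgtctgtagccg
GARS1, chr7:30594788-30594907, plus strand: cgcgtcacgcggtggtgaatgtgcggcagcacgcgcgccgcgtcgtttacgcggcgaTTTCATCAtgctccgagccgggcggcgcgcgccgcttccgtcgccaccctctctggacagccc
IARS1, chr9:92293668-92293787, minus strand: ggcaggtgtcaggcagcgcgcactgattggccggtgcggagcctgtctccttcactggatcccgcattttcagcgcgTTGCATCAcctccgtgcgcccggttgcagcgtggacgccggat
MARS1, chr12:57487978-57488097, plus strand: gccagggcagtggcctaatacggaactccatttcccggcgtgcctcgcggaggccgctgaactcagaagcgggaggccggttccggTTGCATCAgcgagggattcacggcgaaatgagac
NARS1, chr18:57621807-57621926, minus strand: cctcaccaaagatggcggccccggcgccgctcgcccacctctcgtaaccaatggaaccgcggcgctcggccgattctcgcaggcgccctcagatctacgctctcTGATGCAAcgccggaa
TARS1, chr5:33440875-33440994, plus strand: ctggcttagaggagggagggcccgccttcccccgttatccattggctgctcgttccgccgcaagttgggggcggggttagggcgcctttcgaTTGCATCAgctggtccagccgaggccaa

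The first base of the match lay 2 bases before the start in CARS1, 33 before it in GARS1, 13 before it in IARS1 and 4 before it in MARS1, and 14 and 2 bases after it in NARS1 and TARS1. In CARS1, IARS1, MARS1 and TARS1 the matched letters were TTGCATCA, and NARS1 held the same letters on the other strand. AARS1 held TTGCATCA 187 bases before its start. YARS2, the mitochondrial gene with a match, held TGATGGAA 197 bases before its start. The E-box was found in 1 of 16 cytosolic genes (IARS1) and 3 of 14 mitochondrial genes (CARS2, EARS2 and MARS2), beside 8.77% of all genes. These matches describe letters in a window and no binding was measured.

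Wortmannin lowered nearly the whole cytosolic set. Of the 19 cytosolic genes, 18 fell and 1 rose, where 19.4% of all tested genes fell and 18% rose (edgeR quasi-likelihood test, adjusted p under 0.05). Their median log2 fold change was −0.49, from −0.92 to 0.23, and the median of all tested genes was 0.01. Of the 16 mitochondrial genes, 9 fell and none rose (10 had an unadjusted p under 0.05), with a median of −0.17, from −0.39 to 0.03. Such bulk levels cannot tell less transcript in every cell from a loss in some of the cells.

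The largest fall was that of YARS1, the tyrosyl enzyme (ENSG00000134684, chromosome 1, 32775237 to 32818153, GRCh38). It had 157, 159 and 159 CPM in the Vehicle libraries and 82.2, 82.7 and 86.2 CPM with wortmannin, which is −0.92 ± 0.027 as log2 fold change and SE (adjusted p = 6.4e-35). MARS1, the methionyl enzyme (ENSG00000166986, chromosome 12, 57475445 to 57517569), went from 258, 264 and 261 CPM to 147, 144 and 150.4 CPM (−0.83 ± 0.031, adjusted p = 4.8e-30). In both genes every wortmannin library lay under every Vehicle library. GARS1, the glycyl enzyme of both compartments (ENSG00000106105, chromosome 7, 30594681 to 30634033), went from 217, 234 and 219 CPM to 132, 128 and 133 CPM (−0.77 ± 0.032, adjusted p = 8.3e-28). CARS1, the cysteinyl enzyme (ENSG00000110619, chromosome 11, 3000922 to 3057613), went from 65.3, 68.9 and 70.7 CPM to 39.5, 41.0 and 42.3 CPM (−0.74 ± 0.039, adjusted p = 2.0e-23). The groups were apart in these genes too. AARS1, the alanyl enzyme (ENSG00000090861, chromosome 16, 70252295 to 70289543), went from 285, 295 and 287 CPM to 187, 186 and 189.6 CPM (−0.62 ± 0.030, adjusted p = 6.0e-25). EPRS1, which charges both glutamate and proline (ENSG00000136628, chromosome 1, 219968601 to 220046658), went from 244, 236 and 253 CPM to 156, 166 and 161 CPM (−0.60 ± 0.029, adjusted p = 4.8e-25). In all 19 cytosolic genes the 3 wortmannin libraries and the 3 Vehicle libraries did not overlap. The same held for 10 of the 16 mitochondrial genes. How many of all tested genes had groups that did not overlap was not counted, here or in the comparisons below.

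The remaining cytosolic falls were graded. IARS1 (isoleucine) fell by 0.58 ± 0.030 on the log2 scale, TARS1 (threonine) by 0.49 ± 0.031, NARS1 (asparagine) by 0.49 ± 0.030 and WARS1 (tryptophan) by 0.49 ± 0.031. VARS1 (valine) fell by 0.42 ± 0.036, FARSB by 0.40 ± 0.034, KARS1 by 0.39 ± 0.029 and SARS1 (serine) by 0.31 ± 0.033. FARSA, which with FARSB forms the phenylalanyl enzyme, fell by 0.23 ± 0.043, LARS1 (leucine) by 0.19 ± 0.033, HARS1 (histidine) by 0.17 ± 0.035 and RARS1 (arginine) by 0.17 ± 0.031. QARS1, the glutaminyl enzyme (ENSG00000172053, chromosome 3, 49095932 to 49105135), was the cytosolic gene that went the other way. It rose from 107, 107 and 112 CPM to 127, 129.7 and 126 CPM (0.23 ± 0.030, adjusted p = 5.7e-09), and the groups did not overlap.

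Among the mitochondrial genes the falls were smaller. EARS2, the glutamyl enzyme, went from 50.1, 52.1 and 52.4 CPM to 40.2, 39.0 and 38.8 CPM (−0.39 ± 0.044, adjusted p = 6.6e-11). SARS2 went from 50.4, 52.7 and 51.1 CPM to 41.1, 43.8 and 37.4 CPM (−0.34 ± 0.045, adjusted p = 1.1e-08). Both groups of values were apart in both genes. TARS2 fell by 0.22 ± 0.050, IARS2 by 0.20 ± 0.034, WARS2 by 0.20 ± 0.081, MARS2 by 0.19 ± 0.057, NARS2 by 0.18 ± 0.058, YARS2 by 0.17 ± 0.052 and LARS2 by 0.17 ± 0.055. WARS2 had an adjusted p of 0.045 with edgeR, 0.084 with DESeq2 and 0.14 without the filter on low counts. The genes that did not pass were AARS2, CARS2, FARS2, HARS2, PARS2, RARS2 and VARS2, with log2 fold changes from −0.12 ± 0.053 (RARS2) to 0.03 ± 0.061 (VARS2). Precision differs between the compartments, because the mitochondrial genes had fewer counts: the SE was 0.027 to 0.043 for cytosolic and 0.034 to 0.095 for mitochondrial genes.

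**Figure D2:**
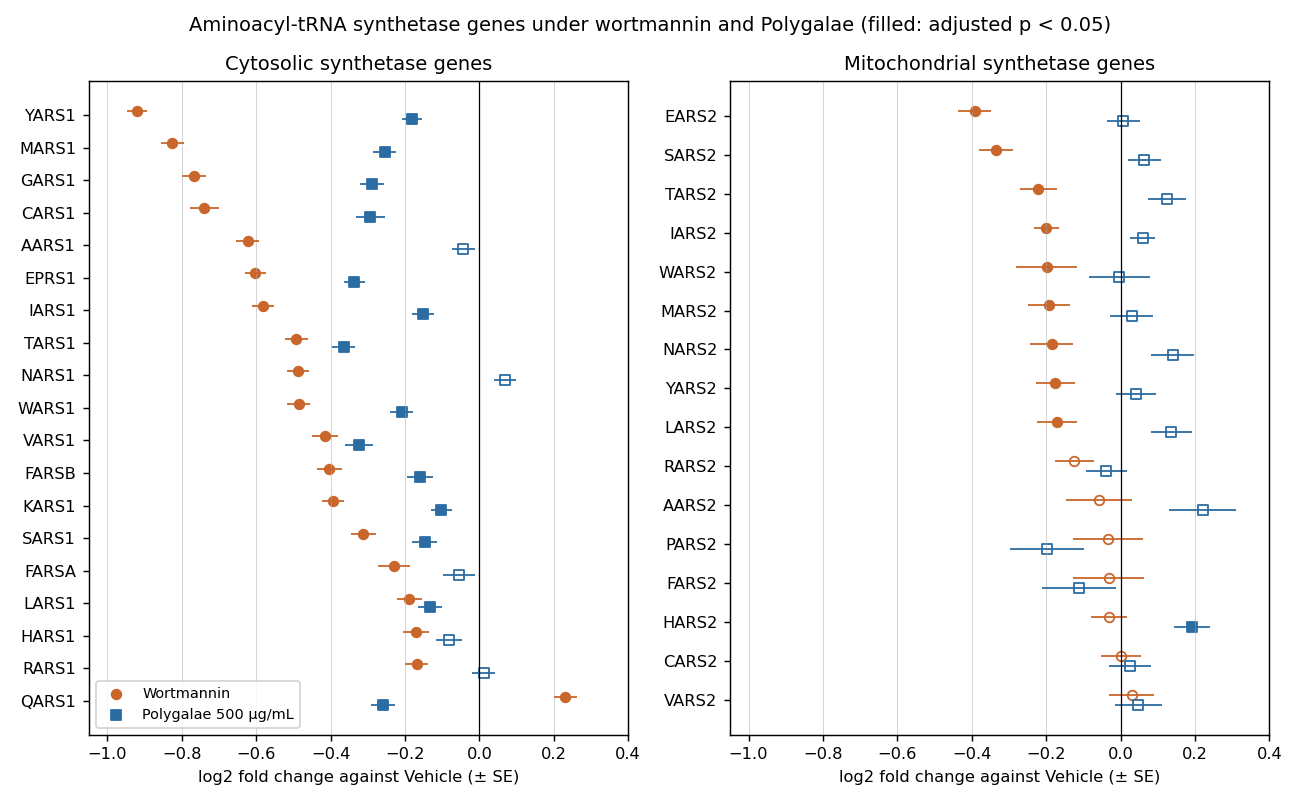
Log2 fold change against Vehicle (± SE) of each cytosolic (left) and mitochondrial (right) synthetase gene with wortmannin (orange circles) and Polygalae 500 (blue squares), with filled symbols for adjusted p under 0.05. With wortmannin 18 cytosolic genes lie left of 0, QARS1 alone lies right of it, and the mitochondrial values stay above −0.4.

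Amino acid by amino acid, the cytosolic gene had the lower fold change in 12 of 13 pairs, with a median difference of −0.30 on the log2 scale. The gap was widest for tyrosine (YARS1 −0.92, YARS2 −0.17), cysteine (CARS1 −0.74, CARS2 0.00) and methionine (MARS1 −0.83, MARS2 −0.19). It was near 0 for leucine (−0.02) and arginine (−0.05), and serine was the exception (SARS1 −0.31, SARS2 −0.34). These pairs describe the genes and were not tested as replicates. Summed over the 19 cytosolic genes, Vehicle libraries held 3360, 3423 and 3392 CPM and wortmannin libraries 2416, 2414 and 2435 CPM. The 16 mitochondrial genes summed to 579, 598 and 588 CPM in Vehicle and 515, 522 and 517 CPM with wortmannin. On the mean of log2 levels per library, the cytosolic set was lower by 0.45 ± 0.008 (SD, n = 3) and the mitochondrial set by 0.14 ± 0.001 than the Vehicle mean. These SDs are those of the wortmannin libraries alone. The Vehicle libraries had an SD of 0.013 for the cytosolic and 0.036 for the mitochondrial set.

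The falls also differed within the cytosolic set. A group of 13 genes was set here as targets of ATF4 (AARS1, CARS1, EPRS1, GARS1, IARS1, LARS1, MARS1, NARS1, SARS1, TARS1, VARS1, WARS1 and YARS1). All 13 fell, with a median of −0.58, from −0.92 to −0.19. Of the 6 others (FARSA, FARSB, HARS1, KARS1, QARS1 and RARS1), 5 fell and 1 rose, with a median of −0.20. This grouping was made with the results known and supports nothing on its own. The 7 cytosolic genes with TGATGNAA in a promoter window fell by 0.49 to 0.83, and the 9 with a window and no match ran from −0.60 (EPRS1) to 0.23 (QARS1), with medians of −0.62 and −0.31. Of these, 7 of 7 and 8 of 9 fell. With Polygalae 500, described below, 5 of the 7 and 6 of the 9 fell, with medians of −0.25 and −0.15. By structural class of the enzyme, the median was −0.49 for 9 genes of class I and −0.40 for 9 of class II, with EPRS1 belonging to both. The 7 genes of the multi-enzyme complex had a median of −0.39 and the 12 outside it −0.49.

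**Figure D3:**
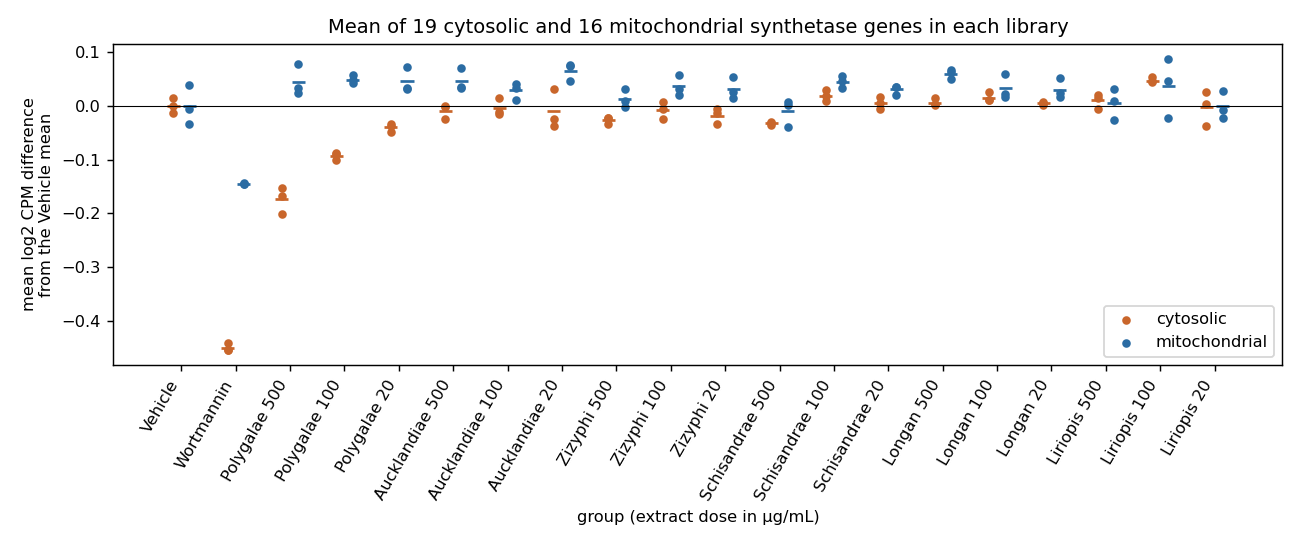
Mean log2 CPM of the 19 cytosolic (orange) and 16 mitochondrial (blue) synthetase genes in each library, as the difference from the Vehicle mean (points: libraries, dashes: means of 3). Wortmannin stands at −0.45 for the cytosolic and −0.14 for the mitochondrial set, and with Polygalae 20, 100 and 500 the cytosolic set stands at −0.04, −0.09 and −0.17 and the mitochondrial set near 0.05.

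Most of the listed stress response genes also fell with wortmannin, and the other lists of related genes were mixed. These are transcript levels, and ATF4 protein was not measured. The counts below stand beside 19.4% of all tested genes that fell and 18% that rose. ATF4 itself went from 260, 273 and 258 CPM to 173, 172 and 170 CPM (−0.62 ± 0.038, adjusted p = 1.4e-20). ASNS went from 95.0, 99.7 and 97.5 CPM to 28.5, 29.6 and 31.9 CPM (−1.70 ± 0.054). EIF2AK4, the sensor kinase, did not pass (−0.06 ± 0.039, adjusted p = 0.22). Of 13 genes of this stress response, 10 fell and none rose, and the largest falls were those of the glutathione-degrading enzyme CHAC1 (−2.49 ± 0.14) and ASNS. Of the 3 scaffolds of the complex, AIMP2 (−0.46 ± 0.044) and EEF1E1 (−0.22 ± 0.073) fell and AIMP1 did not pass (−0.11 ± 0.052, adjusted p = 0.086). Of 12 further genes of mitochondrial translation 6 fell, led by the transfer RNA modifying enzyme TRMU (−0.43 ± 0.058) and the elongation factor TUFM (−0.36 ± 0.033). Of 5 genes of transfer RNA maturation 3 fell, led by ELAC2 (−0.31 ± 0.029) and HSD17B10 (−0.29 ± 0.063). Of 5 cytosolic elongation factors, EEF1A1 (0.23 ± 0.049) and EEF1G (0.10 ± 0.031) rose and EEF1D fell (−0.13 ± 0.040).

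Polygalae 500, the highest dose of the Polygalae Radix extract, lowered 14 of the 19 cytosolic genes and raised none, where 9.48% of all tested genes fell and 10.4% rose. The falls were smaller than those with wortmannin, with a median of −0.16, from −0.36 to 0.07. Of the 16 mitochondrial genes 1 rose and none fell (5 of 16 had an unadjusted p under 0.05), with a median of 0.04. The cytosolic gene again had the lower fold change in 12 of 13 pairs, with a median difference of −0.26. Since both comparisons use the same Vehicle libraries, their likeness is no independent result. On the mean of log2 levels, the cytosolic set lay at −0.20, −0.15 and −0.17 in the 3 libraries, against −0.00, −0.00 and −0.03 with Aucklandiae 500 of the same library set.

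TARS1 (ENSG00000113407, chromosome 5, 33440696 to 33469539) fell most, from 285, 286 and 282 CPM in Vehicle to 216, 223 and 223 CPM (−0.36 ± 0.031, adjusted p = 2.6e-14). EPRS1 stood at 193, 188 and 199.5 CPM with Polygalae 500, under its 236 to 253 CPM in Vehicle (−0.34 ± 0.029, adjusted p = 3.05e-14). VARS1 (ENSG00000204394, chromosome 6, 31777518 to 31795953) went from 126, 123 and 121 CPM to 95.3, 104 and 96.4 CPM (−0.32 ± 0.037, adjusted p = 2.3e-10). None of these 3 genes had overlapping groups. CARS1 stood at 54.3, 56.5 and 56.5 CPM (−0.29 ± 0.039, adjusted p = 2.0e-08). GARS1 stood at 175, 186 and 188 CPM (−0.29 ± 0.032, adjusted p = 1.4e-10). QARS1, which had risen with wortmannin, stood at 89.4, 92.6 and 90.3 CPM, under its 107 to 112 CPM in Vehicle (−0.26 ± 0.031, adjusted p = 1.8e-09).

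MARS1 fell by 0.25 ± 0.031, WARS1 by 0.21 ± 0.031, YARS1 by 0.18 ± 0.027, FARSB by 0.16 ± 0.034, IARS1 by 0.15 ± 0.030, SARS1 by 0.15 ± 0.034, LARS1 by 0.13 ± 0.033 and KARS1 by 0.10 ± 0.029. KARS1 did not pass without the filter on low counts (adjusted p = 0.059), without Vehicle replicate 3 (0.051) or without Polygalae 500 replicate 1 (0.067). The 5 cytosolic genes that did not pass were AARS1 (−0.04 ± 0.030), FARSA (−0.05 ± 0.043), HARS1 (−0.08 ± 0.035), NARS1 (0.07 ± 0.030) and RARS1 (0.01 ± 0.031). AARS1 and NARS1 were among the falls with wortmannin, and here NARS1 had 186, 192 and 193 CPM, above its 180.1 to 183 CPM in Vehicle. The mitochondrial gene that rose was HARS2, the histidyl enzyme, from 37.3, 37.2 and 36.5 CPM to 41.8, 42.1 and 42.8 CPM (0.19 ± 0.048, adjusted p = 0.0023). AARS2 had the highest mitochondrial value but did not pass (0.22 ± 0.090, adjusted p = 0.075).

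The stress response genes split at this dose, where 9.48% of all tested genes fell and 10.4% rose. ATF4 fell from 258 to 273 CPM in Vehicle to 233, 247 and 241 CPM (−0.13 ± 0.038, adjusted p = 0.0070). ASNS fell to 69.6, 72.4 and 66.7 CPM (−0.48 ± 0.051). EIF2AK4 rose to 60.5, 58.3 and 61.6 CPM from 53.5 to 55.6 CPM (0.14 ± 0.040, adjusted p = 0.0081). Of the 13 stress response genes 6 rose and 5 fell, and the largest changes were a fall of CHAC1 (−0.92 ± 0.12) and a rise of TRIB3, a pseudokinase that feeds back on ATF4 (0.90 ± 0.046). The scaffolds AIMP1 (0.04 ± 0.053), AIMP2 (0.01 ± 0.044) and EEF1E1 (−0.00 ± 0.075) did not pass. Of 12 genes of mitochondrial translation 4 rose and none fell, led by QRSL1 (0.20 ± 0.060), a subunit of the amidotransferase, and MTFMT (0.19 ± 0.065), the formyltransferase of the initiator. EEF2 was the elongation factor that fell (−0.22 ± 0.035), and none of the 5 transfer RNA maturation genes passed (2 had an unadjusted p under 0.05).

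**Figure D4:**
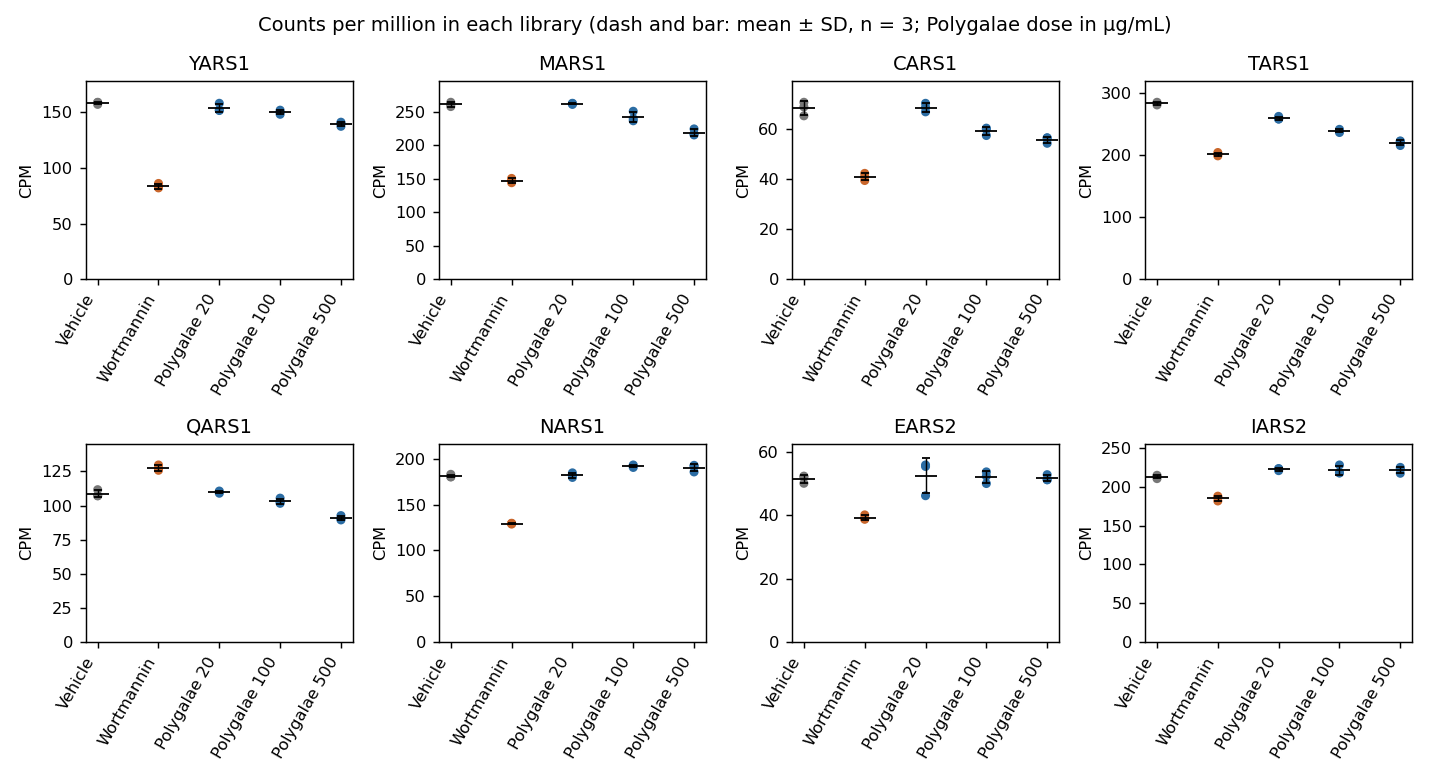
CPM of 8 synthetase genes in the Vehicle (grey), wortmannin (orange) and Polygalae libraries (blue; points: libraries, dash and bar: mean ± SD, n = 3). YARS1, MARS1, CARS1 and TARS1 are lower with wortmannin and their means step down from Polygalae 20 to 500, QARS1 is higher with wortmannin (127.5) and lower with Polygalae 500 (90.8), and EARS2 and IARS2 are lower with wortmannin.

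At lower doses of the same extract fewer cytosolic genes passed. With Polygalae 100, 11 cytosolic genes fell (5.27% of all tested genes fell) and 1 mitochondrial gene, HARS2, rose (7.51% rose). Values at this dose were 237, 240 and 242 CPM for TARS1 (−0.25 ± 0.031), 189.9, 192 and 193 CPM for GARS1 (−0.22 ± 0.032) and 59.9, 60.4 and 57.4 CPM for CARS1 (−0.21 ± 0.038). The other falls were those of EPRS1, FARSB, IARS1, MARS1, SARS1, VARS1, WARS1 and YARS1, from −0.16 to −0.08. Without replicate 2 of Vehicle, 6 members passed in place of 12. With Polygalae 20, TARS1, FARSB, WARS1 and GARS1 fell (5.53% of all tested genes fell) and HARS2 rose (6.59% rose). TARS1 had 259, 263 and 259 CPM, under its 282 to 286 CPM in Vehicle (−0.13 ± 0.031). FARSB had 118, 107 and 115 CPM against 123 to 126 CPM (−0.14 ± 0.034), and HARS2 44.8, 43.8 and 39.0 CPM against 36.5 to 37.3 CPM (0.20 ± 0.048). All 3 genes had groups that did not overlap. The libraries of Polygalae 20 are those that stood apart from each other: without its replicate 1, 2 members passed in place of 5, and 0 passed edgeR's test when it was fitted to the 6 libraries of the comparison alone.

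Within the extract, and with no Vehicle library in the fit, the dose slope was negative for 18 of 19 cytosolic genes and 7 of them passed (2.03% of all tested genes had a falling slope that passed). No mitochondrial gene passed with edgeR (1 had an unadjusted p under 0.05) or among the 8 members that DESeq2 called. With a slope taken from the fit of all 60 libraries 12 members passed, 11 of them cytosolic and 1 mitochondrial, FARS2 (−0.17 ± 0.050, adjusted p = 0.013). In the fit of 9 libraries the median slope was −0.05 per 5-fold step of dose for cytosolic, 0.01 for mitochondrial and −0.00 for all tested genes. CARS1 fell by 0.15 ± 0.025 on the log2 scale per step (adjusted p = 0.0029), from 66.9, 68.6 and 70.3 CPM at 20 µg/mL to its 54.3 to 56.5 CPM at 500 µg/mL. QARS1 fell by 0.14 ± 0.022 (adjusted p = 0.0021), with 109.9, 109 and 111 CPM at 20 µg/mL, 102, 103 and 105 CPM at 100 µg/mL and 89.4 to 92.6 CPM at 500 µg/mL. The 3 doses of QARS1 did not overlap. VARS1 fell by 0.14 ± 0.024 (adjusted p = 0.0049), with 116, 118 and 123 CPM at 20 µg/mL and 112, 109 and 114 CPM at 100 µg/mL. EPRS1 (0.13 ± 0.023), MARS1 (0.13 ± 0.022) and TARS1 (0.12 ± 0.021) fell as well. GARS1 was at the threshold (−0.09 ± 0.025, adjusted p = 0.044). In 8 of 9 fits that left out 1 library its adjusted p was 0.066 to 0.17, and it was 0.057 with a replicate block. It passed without Polygalae 20 replicate 1. Without the libraries of Polygalae 20, which leaves the doses 100 and 500 µg/mL, 5 of the 7 passed, and CARS1 and GARS1 did not. The slope of CARS1 was then −0.085 in place of −0.15 (adjusted p = 0.39) and that of GARS1 −0.068 in place of −0.09 (adjusted p = 0.36).

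Wortmannin and Polygalae 500 were also compared directly. Of the 19 cytosolic genes 17 were higher with Polygalae 500 (23.9% of all tested genes were) and 1 was lower (20.1% were), and of the 16 mitochondrial genes 10 were higher. The gap was largest for YARS1 (139.7 ± 2.0 against 83.7 ± 2.2 CPM, SD, n = 3, a log2 difference of 0.74 ± 0.028, SE, adjusted p = 1.1e-30). AARS1 stood at 276, 283 and 283 CPM against 187, 186 and 189.6 CPM (0.58 ± 0.031, adjusted p = 1.3e-23), and MARS1 at 215, 217 and 224 CPM against 147, 144 and 150.4 CPM (0.57 ± 0.031, adjusted p = 8.4e-23). QARS1 was the gene lower with Polygalae 500 (−0.49 ± 0.031, adjusted p = 3.6e-20). LARS1 was the cytosolic gene with no difference past the threshold (0.06 ± 0.033, adjusted p = 0.18). HARS1 (0.09, adjusted p = 0.033) and VARS1 (0.09, adjusted p = 0.042) passed by little. Neither passed without the filter on low counts (adjusted p = 0.26 and 0.24) or with the 6 libraries alone (0.095 and 0.076), which left 15 cytosolic genes higher. Neither passed without wortmannin replicate 2 or Polygalae 500 replicate 2, nor did VARS1 without wortmannin replicate 3. Both agents come from different library sets, so that set and agent cannot be told apart here either.

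With the other 5 extracts few synthetase genes passed. Their group means of the cytosolic set lay between −0.03 and 0.05 on the log2 scale, and those of the mitochondrial set between −0.01 and 0.06. With Aucklandiae 500 (4.93% of all tested genes passed in either direction) FARSB fell to 110.4, 116 and 114 CPM (−0.14 ± 0.034), WARS1 fell to 129, 122 and 124 CPM from 131 to 138 CPM (−0.10 ± 0.031) and MARS1 rose to 286, 286 and 277 CPM from 258 to 264 CPM (0.12 ± 0.030). The MARS1 groups did not overlap. With Aucklandiae 100 (2.04% passed) FARSB fell to 113, 115 and 111 CPM (−0.14 ± 0.034). With Aucklandiae 20 (2.99% passed) FARSB fell to 111, 116 and 112 CPM (−0.14 ± 0.034), TARS1 fell to 256, 278 and 257 CPM (−0.11 ± 0.031) and HARS2 rose to 41.3, 43.4 and 40.8 CPM (0.18 ± 0.048). In all 3 of these genes the libraries stayed on one side of Vehicle. With Zizyphi 500 (1.81% passed) FARSB fell to 109, 119 and 111 CPM (−0.14 ± 0.034) and AARS1 rose to 319, 311 and 307 CPM from 285 to 295 CPM (0.11 ± 0.030). With Schisandrae 500 (0.478% passed) MARS2 fell to 15.97, 16.2 and 15.2 CPM from 18.7, 18.6 and 18.8 CPM (−0.24 ± 0.058, adjusted p = 0.032).

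Many of these calls did not hold when a library was left out, which also leaves 1 group smaller. With Aucklandiae 500, 1 member passed in place of 3 without Vehicle replicate 1 or 2, or without its own replicate 1 or 2. With Aucklandiae 100, 0 passed in place of 1 without Vehicle replicate 2 or its own replicate 1 or 3. With Aucklandiae 20, 0 passed in place of 3 without Vehicle replicate 2 or its own replicate 1 or 3, and 1 without Vehicle replicate 1 or 3. With Zizyphi 500, 1 passed in place of 2 without Vehicle replicate 1 or its own replicate 2, and 0 without any of the other 4 libraries. With Schisandrae 500, 0 passed in place of 1 without any of the 6 libraries. In the other 10 comparisons with Vehicle no member passed edgeR's test, 1 to 7 had an unadjusted p under 0.05, and DESeq2 called 0 or 1. Of all tested genes, 0.599% passed with Zizyphi 100, 0.363% with Zizyphi 20, 1.4% with Schisandrae 100 and 0.196% with Schisandrae 20. The share was 0.104% with Longan 500, 0.132% with Longan 100 and 0.0173% with Longan 20. It was 0.00576% with Liriopis 500, 0.00576% with Liriopis 100 and 0.0864% with Liriopis 20. No member had a dose slope that passed in Aucklandiae (0.967% of all tested genes passed), Zizyphi (0.351%), Schisandrae (0.0403%), Longan (0.0345%) or Liriopis (0.0461%), where 1 or 2 members had an unadjusted p under 0.05 and DESeq2 called none.

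Many members stood on the same side of Vehicle under most extracts. In at least 16 of 18 extract groups 13 of the 35 members did so. The share of all tested genes that did so was not counted, so this is not shown to be particular to synthetase genes. FARSB, TARS1, WARS1 and MARS2 were lower, and AARS1, MARS1, AARS2, EARS2, HARS2, LARS2, NARS2, TARS2 and VARS2 were higher. FARSB, the beta subunit of the phenylalanyl enzyme, was lower than in Vehicle in 16 of 18 extract groups, passed in 7 of them, and had a median log2 fold change of −0.13, from −0.16 to 0.00. TARS1 (median −0.07) and WARS1 (median −0.06) were lower in 16 groups and passed in 4 each. HARS2 was higher in 17 of 18 groups, passed in 4, and had a median of 0.08. TARS2 (median 0.10) and VARS2 (median 0.09) were higher in 18 of 18 groups and passed in none (edgeR). These comparisons share the same 3 Vehicle libraries, so the counts of groups are not independent of each other. Vehicle was also alone in its library set, so that set and extract cannot be told apart in them. The labels name dimethyl sulfoxide for Vehicle and not for the extract groups. If the solvent differed, it cannot be told apart from the extract either. FARSA, the partner of FARSB, was lower in 12 of 18 groups and passed in none.

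**Figure D5:**
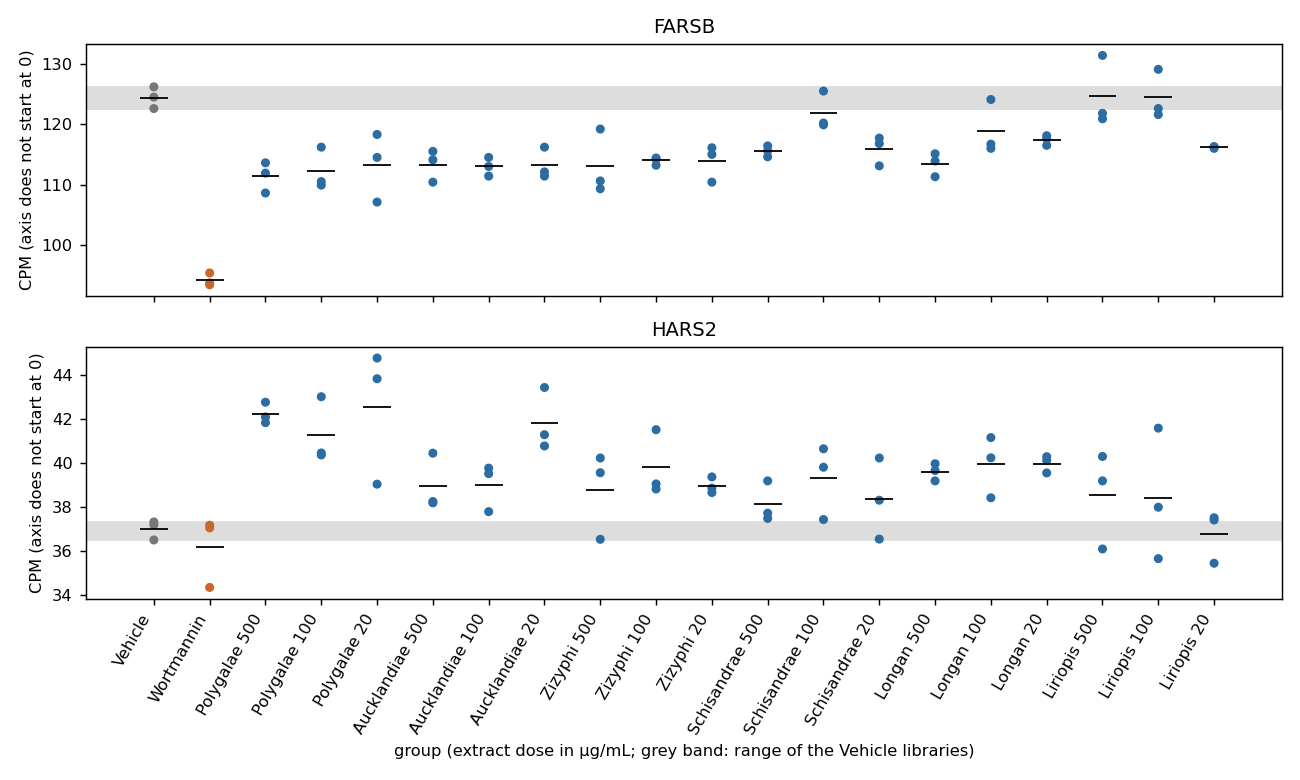
CPM of FARSB (top) and HARS2 (bottom) in every library of the 20 groups (points: libraries, dashes: means, grey band: range of the 3 Vehicle libraries; the axes do not start at 0). FARSB lies under the band in most extract groups and lowest with wortmannin (94.1), and HARS2 lies above it in most extract groups and not with wortmannin (36.2).

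The position of some members may bear on their counts, which was not tested. HARS1 (minus strand, chromosome 5, 140673904 to 140691862) and HARS2 (plus strand, 140691426 to 140699318) start beside each other and overlap by 437 bases, and are related in sequence. Their values are uncertain as far as the counting divided shared reads between them. HARS1 fell with wortmannin (−0.17 ± 0.035) and HARS2 did not pass (−0.03 ± 0.048), whereas with Polygalae 500 HARS2 rose and HARS1 did not pass. MARS1 overlaps by 982 bases with DDIT3, a stress-induced transcription factor gene on the opposite strand (57516588 to 57521737). The strand setting of the counting is not given in the sources used here. DDIT3 had 7.60, 7.11 and 7.89 CPM in Vehicle, where MARS1 had 258 to 264 CPM. With wortmannin DDIT3 stood lower, at 4.2, 4.3 and 3.7 CPM, and MARS1 fell too. With Polygalae 500 DDIT3 rose to 11.8, 14.03 and 11.5 CPM (0.73 ± 0.093) while MARS1 fell. Whether reads were shared between both genes was not tested.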

How the data were processed

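The deposited values are expected counts per gene in each library, without scaling to depth. Per the submitters' processing notes, GRCh38 was the genome build, and the tools were RSEM 1.3.3, STAR 2.7.3a, Trim Galore 0.6.5 and FastQC 0.11.9. The annotation release is not given in the sources used here. The library kit keeps strand, per the labels' protocols. Of the values, 10.7% were not whole and were rounded. Of the 60675 Ensembl identifiers, 56558 took a symbol from a gene name table and 497 from GENCODE release 29, which also gave positions and transcript lengths. CPM uses library sizes scaled by TMM.

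Counts were tested with edgeR 4.0.16 (robust quasi-likelihood test, TMM scaling, filterByExpr over 20 groups) in R 4.3.3, in 1 fit of 60 libraries with 1 mean per group. Dose slopes used the 9 libraries of an extract, with doses 20, 100 and 500 µg/mL in 5-fold steps. P-values were two-sided and adjusted by Benjamini-Hochberg over 17368 genes, with a threshold of 0.05. Errors of fold changes are SE and those of levels SD. The fits were tested on simulated data. DESeq2 1.42.0, RLE factors, no filter, a replicate block, smaller sets of libraries and omission of each library were tried as alternatives. Same-numbered libraries of the groups compared showed little shared deviation, and the main fits do not pair them. This does not exclude pairing, and libraries within a set, as in the dose slopes, were not checked in this way.

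Values per library are given for the 6 largest changes that passed with wortmannin and with Polygalae 500, and for the 3 largest elsewhere. Other lists are given by counts and their 2 largest changes, and ATF4, ASNS, EIF2AK4 and the scaffolds are named regardless. EARS2, SARS2, FARS2, FARSA, NARS1 and DDIT3 were added after their values were seen. The members and lists were chosen with earlier results of these data known. Libraries that stood apart differed from their group mates by over 1.5 times the median difference (root mean square of log2 values), a rule set after seeing the data.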

Additional observations from a re-analysis of the deposited data

How the results depend on the processing

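All 105 calls of single members kept their direction under every alternative run. They also stayed past the threshold with RLE factors, and 103 did with DESeq2, 104 with a replicate block, 91 of 98 with 6 libraries alone, 98 of 100 without the libraries that stood apart, 86 of 105 without the low-count filter and 560 of 651 when single libraries were left out. Numbers of members that passed shifted as follows, and the cause was not tested. Without the filter they were 6 with Polygalae 100, 3 with Polygalae 20, 1 with Aucklandiae 500, 1 with Aucklandiae 20, 0 with Zizyphi 500 and 0 with Schisandrae 500. With the 6 libraries of a comparison alone they were 0 with Polygalae 20, 5 with Aucklandiae 500, 4 with Aucklandiae 100, 1 with Zizyphi 100, 1 with Zizyphi 20, 2 with Longan 500 and 1 with Longan 20. DESeq2 gave 2 with Aucklandiae 100, 1 each with Zizyphi 100, Zizyphi 20 and Longan 500, and 0 with Schisandrae 500. RLE factors gave 1 with Zizyphi 100. Without the 4 libraries that stood apart, an alternative chosen after seeing the data, they were 5 with Aucklandiae 500, 4 with Aucklandiae 100 and 1 each with Zizyphi 100, Zizyphi 20, Schisandrae 100 and Longan 500. The slope of Polygalae taken from all 60 libraries passed in 12 members in place of 7, of which 1, FARS2, is mitochondrial. Single libraries left out gave 25 to 28 with wortmannin, 14 to 16 with Polygalae 500, 6 to 11 with Polygalae 100, 2 to 7 with Polygalae 20, 1 to 3 with Aucklandiae 500, 0 to 1 with Aucklandiae 100, 0 to 2 with Aucklandiae 20, 0 to 1 with Zizyphi 500, 0 to 0 with Schisandrae 500, 25 to 29 for Polygalae 500 against wortmannin and 6 to 9 for the slope of Polygalae. The cytosolic median ran from −0.49 to −0.46 with wortmannin and from −0.109 to −0.091 with Polygalae 100.

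With the replicate number as a block, 29 members passed with wortmannin in place of 28, 15 with Polygalae 500, and 6 in place of 7 for the slope of Polygalae, where GARS1 was lost. Same-numbered libraries had correlations of their deviations from −0.138 to 0.168, and in 0 of 20 comparisons were all 3 over 0.1. The SE of mitochondrial genes reached 0.095 with wortmannin, which limits the changes that could be detected there.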
